A study of Mus musculus with 4 samples.

Results

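The secreted Wnt ligands of the mouse, the Frizzled and Lrp receptors that bind them, the secreted proteins that block or strengthen the signal and a pair of target genes were measured in whole embryos. Members were taken by gene name from the annotation of the arrays. They comprised 47 of the 37074 genes named there: 19 Wnt ligands, 10 Frizzled receptors, the coreceptors *Lrp5* and *Lrp6*, 10 secreted antagonists of the Sfrp and Dkk families with *Wif1* and *Notum*, 4 R-spondins, and the target genes *Axin2* and *Lef1*. Total RNA of whole C57BL/6 embryos was labelled with Cy3 and hybridized to one-colour Agilent arrays, 1 array for each of 4 groups: WT at E8.5, *Dyrk2*-/- at E8.5, WT at E10.5 and *Dyrk2*-/- at E10.5 (E, embryonic day). The *Dyrk2*-/- embryos came from lines in which CRISPR/Cas9 nickase had made small deletions in *Dyrk2*, which encodes a protein kinase. Which line was used, and how many embryos gave each RNA, is not given in the sources used here. Each group has 1 array, so a genotype difference within a stage has no p-value and no check by replication.

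Wnt proteins are lipid-modified signals that bind a Frizzled receptor together with Lrp5 or Lrp6. In the canonical branch this stabilizes β-catenin, which enters the nucleus and activates target genes with Tcf and Lef proteins, while other branches act on cell polarity and movement. In the mouse embryo these signals maintain the primitive streak and the tail bud, pattern the dorsal neural tube and midbrain, and later act in the limb buds, heart, kidney and face.

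Levels are log2 intensities relative to the 75th percentile of the same array, so a negative level lies below that percentile. A level describes 1 probe and is not comparable with that of another probe. For each list the gene with the highest mean level over the 4 arrays is printed, which picks a gene and ranks none. Each gene is represented by its brightest probe, and 4 levels in a row stand for WT E8.5, *Dyrk2*-/--labelled E8.5, WT E10.5 and *Dyrk2*-/--labelled E10.5. The scanner software marked a probe as well above background or not on each array, and 39 of the 47 members were well above background on all 4 arrays, 7 on 1 to 3 arrays and 1, *Wnt2b*, on no array. Below, at background means not well above it. A member marked on only 1 array of a pair has a bound in place of a fold. Probes printed several times gave a median SD between spots of 0.09, 0.12, 0.07 and 0.08 (log2), which covers the spots of an array and not the difference between embryos.

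*Dyrk2* itself did not check the labels. Its brightest probe (chromosome 10 of mm9, 118296479 to 118296538) had levels of 0.06, 0.76, −0.31 and 0.34, higher on both arrays labelled *Dyrk2*-/-. Its other probe had levels of −0.23, −0.20, −0.28 and −0.00. A probe outside a small deletion checks nothing, and the place of these probes relative to the deletions was not determined. The arrays are therefore called the labelled arrays below, and each direction between genotypes rests on the submitters' labels.

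Both labelled arrays stood apart from their WT array in markers of particular cells. Of 14 erythroid markers 13 were on the array, and all 13 were higher on the labelled array at both stages. At E8.5, where 5.14% of all genes were higher by 1.5-fold or more, 11 of them were, and at E10.5, where 3.50% of all genes were, 7 of them were. Their summed linear level, in units of the 75th percentile of the array, was 24.0, 391, 1380 and 1610, and *Hbb-bh1*, which had the highest mean level, stood at 3.37, 7.15, 8.19 and 8.40. On the WT E8.5 array *Klf1*, a transcription factor of red cells, was not well above background, and *Epb42* had no probe. The WT E8.5 array was thus low and the other 3 high in red cell transcripts. At E10.5 the labelled array differed in the sex chromosome list of 5 genes: *Xist* passed the background mark only there, and the Y-linked *Uty*, *Kdm5d*, *Eif2s3y* and *Ddx3y* passed it only on the other 3 arrays. The summed level of that list was 4.67, 4.24, 3.52 and 0.816, and *Eif2s3y*, with the highest mean level, stood at 1.45, 1.14 and 0.66 on those 3 arrays.

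Of 14 yolk sac endoderm markers, 13 were measured at E8.5 and all 13 were lower on the labelled array. Where 6.50% of all genes were lower by 1.5-fold or more, 7 of them were (*Hnf4a* 1.97-fold, *Amn* 1.75-fold, *Cubn* 1.72-fold, *Apoa4* 1.67-fold, *Apob* 1.55-fold, *Ttr* 1.54-fold and *Rbp4* 1.51-fold). At E10.5, 11 of 13 were lower and 0 passed 1.5-fold, where 7.72% of all genes did. The summed level was 104, 79.1, 48.5 and 44.3, and *Lamb1*, with the highest mean level, stood at 5.28, 5.16, 4.21 and 4.30, while *Alb* was at background at E8.5, *Apoa4* at E10.5 and *Amn* on the labelled E10.5 array. Of 12 decidua and trophoblast markers, 11 were on the array and 7 were well above background on any array, with a summed level of 1.62, 1.61, 3.20 and 4.43. Of the list, *Tpbpa*, *Prl7a2*, *Ctsq* and *Psg18* were at background on all 4 arrays, and *Prl2c2* had no probe. The highest mean level was that of *Dcn* (0.15, −0.51, 1.43 and 1.97). *Prl3d1* was at least 6.62-fold and *Prl8a2* 2.72-fold higher on the labelled E8.5 array. *Dcn*, which is also made by connective tissue, was 1.57-fold, *Prl3b1* 1.29-fold and *Cyp11a1* 1.25-fold lower. Of the list, 3 of 6 measured genes were higher there and 3 lower (median log2 ratio −0.06, or 0.14 with the normexp correction), and 4 of 5 were higher at E10.5 and 1 lower (median 0.17). The part of blood, yolk sac, trophoblast, decidua and sex in the results on Wnt genes was not tested. Nor was that of any difference in developmental age between arrays of the same stage. In whole embryos fewer cells of a type and less RNA per cell cannot be told apart.

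Between genotypes at E8.5, 7 of 43 measured members differed 1.5-fold or more (16.3%, against 11.6% of all 20709 measured genes). Of these, 1 member was higher on the labelled array, where 5.14% of all genes were higher, and 6 were lower, where 6.50% of all genes were lower. *Dkk2* was higher, and *Wnt8a*, *Wnt10a*, *Wnt10b*, *Dkk1*, *Dkk4* and *Axin2* were lower. *Wnt10b* and *Dkk4* were above background on the WT array alone, and no difference of 1.5-fold is supported for them. With such genes set at their bound the count was 5 of 43 (11.6%), beside 9.26% of all genes treated the same way, so that the members' share lay near that of all genes. The median log2 ratio of the members was −0.07 (0.00 with such members set at their bound), beside −0.02 for all genes. On the WT arrays *Wnt8a*, *Wnt10a*, *Dkk1* and *Axin2* were also lower at E10.5 than at E8.5, and *Dkk2* was higher. *Wnt10b* was nearly unchanged there (1.05-fold lower), and *Dkk4* went the other way (2.03-fold higher). The part of developmental age in these differences was not tested.

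At E10.5, 1 of 45 measured members differed 1.5-fold or more (2.22%, against 7.72% of 21209 genes). This was *Sfrp4*, which was lower on the labelled array, where 4.22% of all genes were lower, and 0 members were higher, where 3.50% of all genes were. The median log2 ratio was −0.06, beside −0.00 for all genes.

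These medians depended on how the arrays were scaled to each other. Scaling by the spike-in control probes shifted the median log2 ratio of all genes by −0.55 for E8.5 and by 0.16 for E10.5, while leaving out the scaling shifted it by −0.26 and −0.13. The members followed these shifts, with medians of −0.61 and 0.10 under the spike-in scaling and of −0.32 and −0.19 without scaling. Genotype ratios are therefore given relative to all probes of the array.

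Limma was fitted over all 4 arrays with terms for stage and genotype and 1 residual degree of freedom, over 32289 probes. For genotype over both stages it called 0 of 46 tested members at an adjusted p under 0.05 (0.0186% of all probes were called), while 5 members had an unadjusted p under 0.05: *Wnt8a* (adjusted p = 0.201), *Wif1* (log2 difference −0.55, adjusted p = 0.757), *Wnt10a* (−0.63, adjusted p = 0.809), *Dkk4* (adjusted p = 0.967) and *Axin2* (−0.43, adjusted p = 0.977). No fitted difference is given for *Wnt8a*, which was at background on both E10.5 arrays, or for *Dkk4*, which was at background on the labelled E8.5 array. The other 3 and *Wnt8a* were lower on the labelled E8.5 array under each scaling. At E10.5 the small *Axin2* difference (log2 ratio −0.09) turned to 0.07 under the spike-in scaling.

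Between the WT arrays 30 of 46 measured members differed 1.5-fold or more from E8.5 to E10.5 (65.2%, against 36.4% of 21643 genes). Of these, 15 were higher at E10.5, where 18.8% of all genes were higher, and 15 were lower, where 17.5% of all genes were lower. Between the labelled arrays 28 of 45 did (62.2%, against 31.5% of 21266 genes), 13 higher (17.6% of all genes) and 15 lower (13.9% of all genes), or 27 with bounds. Limma called 32 of 46 members for stage (69.6%, against 35.3% of 32289 probes), of which 16 rose (15.7% of all probes) and 16 fell (19.6% of all probes). Of these, *Wnt16*, *Rspo2* and *Rspo4* were above background at E10.5 alone and *Wnt8a* at E8.5 alone, so that they entered the fit through the arrays where they are high and had to differ. With the fit limited to probes above background on all 4 arrays, limma called 27 of 39 members, 12 higher and 15 lower, and 9926 of 28622 probes. Members and listed genes entered the limma shares once, at their brightest probe, while the share of all probes counted every tested probe. With the mean over all probes of each gene on both sides, limma called 29 of 46 members and 6674 of 20916 genes for stage. Genes that pattern the embryo were chosen by name here, and the larger share of members than of all genes was not tested.

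Under the spike-in scaling 11 of these 32 calls held, those of *Wnt7b*, *Wnt8a*, *Wnt8b*, *Wnt9a*, *Wnt16*, *Dkk2*, *Dkk4*, *Sfrp5*, *Rspo1*, *Rspo2* and *Rspo4*, and the other 21 members kept their direction but missed the threshold. The stage calls below are those relative to the 75th percentile.

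**Figure D1:**
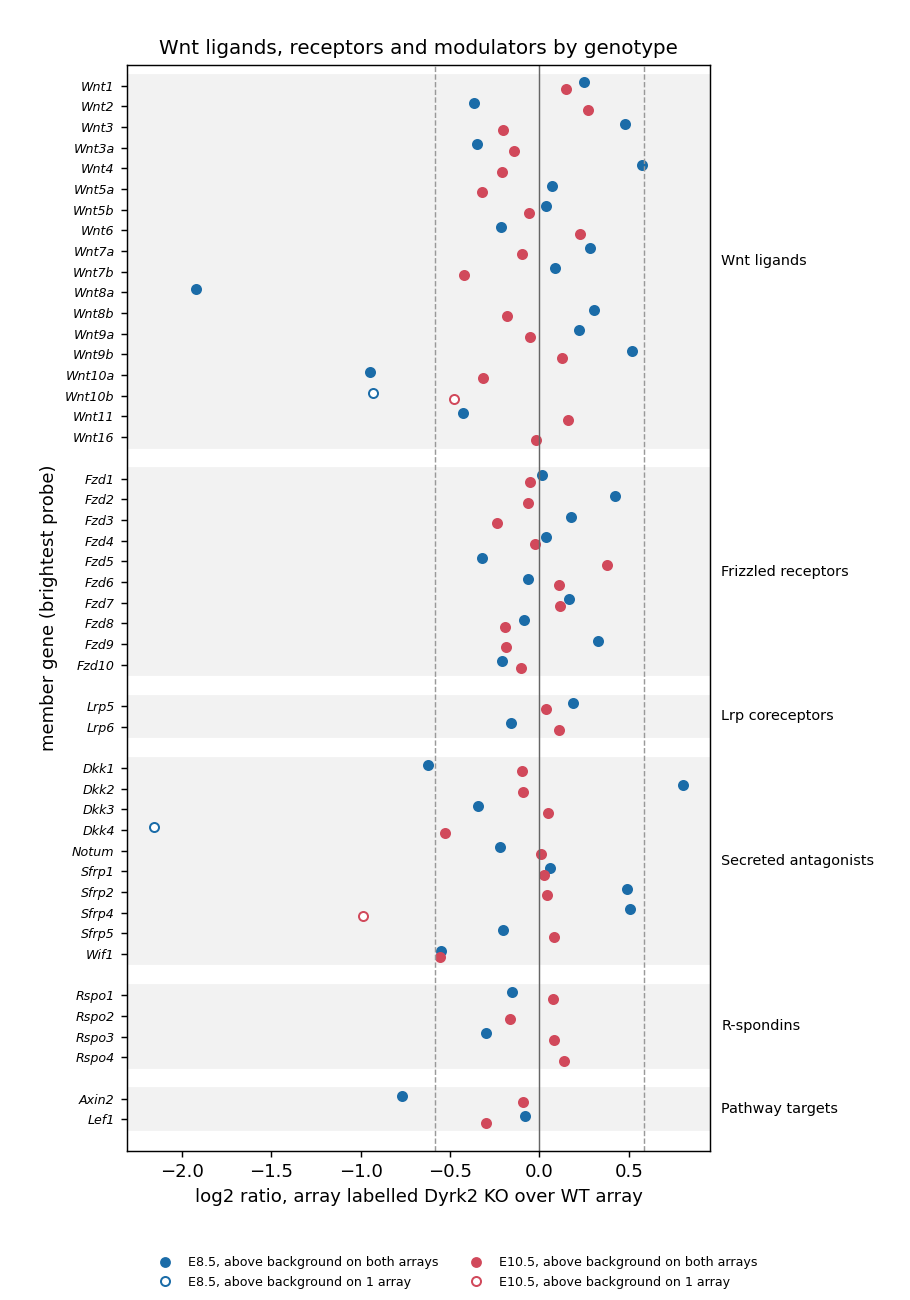
Log2 ratio of the labelled array over the WT array (horizontal axis) for each member at its brightest probe (vertical axis), grouped by class, at E8.5 (blue) and E10.5 (red), 1 array per group and no error bars. Hollow points were above background on 1 array of the pair only and show the measured ratio, not the bound, and dashed lines mark 1.5-fold. At E8.5 *Dkk4*, *Wnt8a*, *Wnt10a*, *Wnt10b*, *Axin2* and *Dkk1* lie to the left of them and *Dkk2* to the right, and spike-in scaling shifts all E8.5 points by −0.55 and all E10.5 points by 0.16.

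Among the Wnt ligands, which are the signals themselves, 17 of 19 were measured at each stage. At E8.5, 10 were higher and 7 lower on the labelled array, with *Wnt8a*, *Wnt10a* and, by measured values but not by its bound, *Wnt10b* past 1.5-fold, all lower. These were 17.6% of the measured ligands, against 11.6% of all genes, or 11.8% against 9.26% with bounds. The median log2 ratio was 0.07, which turned to −0.48 under the spike-in scaling and −0.19 without scaling. At E10.5, 5 were higher and 12 lower, 0 passed 1.5-fold (7.72% of all genes did), and the median was −0.10, which turned to 0.07 under the spike-in scaling. With stage, 7 of 18 tested ligands rose and 7 fell, where 15.7% of all probes rose and 19.6% fell. Among these ligands were *Wnt16* and *Wnt8a*, which were above background at 1 stage alone.

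*Wnt8a*, a ligand of the primitive streak and posterior epiblast, gave the widest genotype difference among ligands above background on both arrays of a pair. Its levels at E8.5 were −0.99 on the WT and −2.92 on the labelled array (chromosome 18 of mm9, 34707599 to 34707658), and at E10.5 neither array was well above background. The WT E8.5 array was thus the highest of the 4, and the labelled one was 3.80-fold lower, with a lower value under each scaling tried (log2 ratio −1.08 to −2.47). From E8.5 to E10.5 it fell at least 13.2-fold on the WT and at least 3.61-fold on the labelled arrays (limma, adjusted p = 3.16e-05).

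*Wnt10a*, a ligand of ectodermal placodes and teeth, had levels of −1.01, −1.96, −1.79 and −2.10. Only the WT E8.5 array was high, so that the labelled array was 1.93-fold lower at E8.5 and 1.24-fold lower at E10.5, and limma did not call its stage difference (−0.46, adjusted p = 0.102). *Wnt10b*, a related ligand that acts in bone and mammary gland, was well above background on the WT arrays alone, at −4.04 and −4.10, and was at least 1.41-fold lower on the labelled array at E8.5 and at least 1.39-fold lower at E10.5. A second *Wnt10b* probe was at background on all 4 arrays. The *Wnt10b* values lie close to the lowest signals marked as above background, which were −4.82, −4.53, −4.72 and −4.77. With the normexp background correction the E8.5 difference of both genes was under 1.5-fold (log2 ratios −0.57 for *Wnt10a* and −0.05 for *Wnt10b*).

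Of the ligands that fell with stage, *Wnt8a* is given above. *Wnt3a*, which keeps the tail bud forming mesoderm, had levels of 0.70, 0.35, −1.18 and −1.32 and fell 3.68-fold on the WT and 3.18-fold on the labelled arrays (limma, log2 difference −1.77, SE 0.145, adjusted p = 2.99e-05). *Wnt5b*, which signals mostly outside the canonical branch, had 3.62, 3.66, 2.08 and 2.02 and fell 2.91-fold and 3.11-fold (adjusted p = 1.85e-05), as did its other probe (3.12-fold and 3.19-fold). In both genes the E8.5 arrays were high and the E10.5 arrays low, and the 2 genotypes lay close together at each stage. *Wnt2*, a ligand of the early heart and the lung field, had 2.84, 2.48, 1.49 and 1.76 (adjusted p = 0.00125), and *Wnt6*, a ligand of the surface ectoderm, had 2.63, 2.42, 1.28 and 1.51 (adjusted p = 0.00039). *Wnt1*, which maintains the midbrain and hindbrain, had 0.51, 0.76, −0.31 and −0.17 (adjusted p = 0.00125). *Wnt5a*, needed for outgrowth of the body axis and limbs, had 2.30, 2.37, 1.97 and 1.64 and fell the least of these ligands (−0.53, adjusted p = 0.0159, or 0.181 without scaling), and its other probes were called lower as well (adjusted p = 0.00719 and 0.0209), the first of them by 1.97-fold on the WT arrays, where the brightest gave 1.26-fold.

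Of the ligands, 7 rose. *Wnt7b*, known from the lung and from vessels of the central nervous system, had levels of −0.89, −0.80, 1.82 and 1.39 and rose 6.52-fold on the WT and 4.58-fold on the labelled arrays (limma, log2 difference 2.45, SE 0.158, adjusted p = 7.47e-06). Its other probe rose less, 3.92-fold and 3.39-fold (adjusted p = 4.73e-05), and the probes differed in genotype direction at E8.5 (log2 ratios 0.08 at the brightest and −0.23 at the other). *Wnt16*, a ligand known from bone, was not well above background at E8.5 and stood at −1.87 and −1.89 at E10.5, at least 7.73-fold and at least 6.02-fold higher (adjusted p = 8.49e-05). The E10.5 arrays of both genes were high and both E8.5 arrays low. *Wnt9a*, a ligand of forming joints, had −2.26, −2.04, −0.33 and −0.38 (3.81-fold and 3.16-fold, adjusted p = 5.55e-05), and *Wnt8b*, which marks the forebrain, had −1.76, −1.45, −0.14 and −0.32 (3.07-fold and 2.19-fold, adjusted p = 0.000347).

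The remaining risers were *Wnt4*, *Wnt7a* and *Wnt3*. *Wnt4*, needed for kidney tubules and the ovary, had levels of 0.02, 0.59, 1.54 and 1.33, and rose 2.87-fold and 1.67-fold (adjusted p = 0.0016). *Wnt7a*, the dorsal signal of the limb ectoderm, had 0.71, 0.99, 2.08 and 1.98 (2.59-fold and 1.99-fold, adjusted p = 0.000268). *Wnt3*, which starts the primitive streak and later acts in limb ectoderm, had −2.43, −1.95, −1.0 and −1.21 (2.68-fold and 1.67-fold, adjusted p = 0.00342). On the labelled E8.5 array each of these 3 lay above WT by less than 1.5-fold, and on the labelled E10.5 array each lay below it, directions that spike-in scaling turned at E8.5 for *Wnt3* and *Wnt7a* and at E10.5 for *Wnt7a*. Limma called neither *Wnt9b*, the signal of the nephric duct (−2.53, −2.01, −2.34 and −2.21), nor *Wnt11*, which acts in the heart outflow tract and kidney (−1.39, −1.82, −2.18 and −2.02, adjusted p = 0.08), nor *Wnt10b* for stage. The other *Wnt11* probe went the opposite way between genotypes at E8.5 (1.13-fold higher, while the brightest was 1.35-fold lower), and limma called it for stage (adjusted p = 0.0437).

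Frizzled receptors are the membrane proteins that bind Wnt. All 10 were measured at both stages, and 0 passed 1.5-fold at their brightest probe, where 11.6% of all genes did at E8.5 and 7.72% at E10.5. Under the spike-in scaling 4 receptors did at E8.5, all lower on the labelled array (40%, against 49% of all genes under that scaling). At E8.5, 6 were higher and 4 lower on the labelled array, with log2 ratios of −0.32 to 0.42 and a median of 0.02, and under the spike-in scaling all 10 were lower, with a median of −0.52. At E10.5, 3 were higher and 7 lower, with log2 ratios of −0.24 to 0.38 and a median of −0.06, which became 0.11 under the spike-in scaling. The member with the highest ratio at E8.5 was *Fzd2*, a receptor of the face and palate (4.05, 4.47, 4.0 and 3.94), where the labelled E8.5 array stood above the other 3.

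With stage, 2 of 10 receptors rose and 4 fell, where 15.7% of all probes rose and 19.6% fell. *Fzd3*, which guides axon tracts, had levels of 1.01, 1.19, 1.91 and 1.68 and rose 1.87-fold on the WT and 1.40-fold on the labelled arrays (limma, adjusted p = 0.00536). *Fzd1* had 1.78, 1.80, 2.36 and 2.31 (1.49-fold and 1.42-fold, adjusted p = 0.00842). Both were high at E10.5 and low at E8.5 in each genotype. *Fzd7*, a receptor of stem cells and early mesoderm, had 1.83, 1.99, 1.20 and 1.32 and fell 1.54-fold and 1.60-fold (adjusted p = 0.00377). *Fzd9*, expressed in the neural tube and later the hippocampus, had 0.73, 1.06, 0.46 and 0.28 (1.21-fold and 1.72-fold, adjusted p = 0.0269, or 0.187 without scaling). *Fzd5*, a receptor of the eye and yolk sac, had −2.56, −2.88, −3.73 and −3.36 and fell 2.26-fold and 1.39-fold (adjusted p = 0.0396, or 0.0818 without scaling), but its other probe was above background on the labelled E10.5 array alone (−4.23).

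*Fzd4*, which also binds Norrin in the retina, had levels of 1.59, 1.62, 1.19 and 1.16 and fell 1.32-fold and 1.38-fold (limma, adjusted p = 0.0256). Of the other scalings that call held only with the normexp correction (adjusted p = 0.025), and missed under quantile normalization (adjusted p = 0.0547), in the deposited table (0.0531) and without scaling (0.411), as did its other probe (0.131). *Fzd2*, *Fzd6*, *Fzd8* and *Fzd10* were not called, with stage differences of −0.29, −0.20, 0.40 and −0.25. The brightest *Fzd8* probe had −1.52, −1.61, −1.07 and −1.26, and the second was at background on WT E8.5 and at −3.92, −3.30 and −3.89 on the other 3 arrays. The probes disagreed between genotypes at E8.5, where the brightest was 1.06-fold lower and the second at least 1.87-fold higher on the labelled array, and both were lower there at E10.5 (log2 ratios −0.19 and −0.58).

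The coreceptors were flat over the 4 arrays. *Lrp5* had levels of −0.31, −0.12, −0.22 and −0.19, and *Lrp6*, the main coreceptor of the early embryo, had 2.70, 2.54, 2.64 and 2.75. Limma called neither for stage (log2 differences 0.01 and 0.07, SE 0.142 and 0.127) or genotype (0.11 and −0.03). Their second probes turned the direction between genotypes: at E8.5 the *Lrp5* probes differed from WT by 0.19 and −0.29 (log2) and the *Lrp6* probes by −0.16 and 0.27, and at E10.5 the *Lrp6* probes differed by 0.11 and −0.22.

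**Figure D2:**
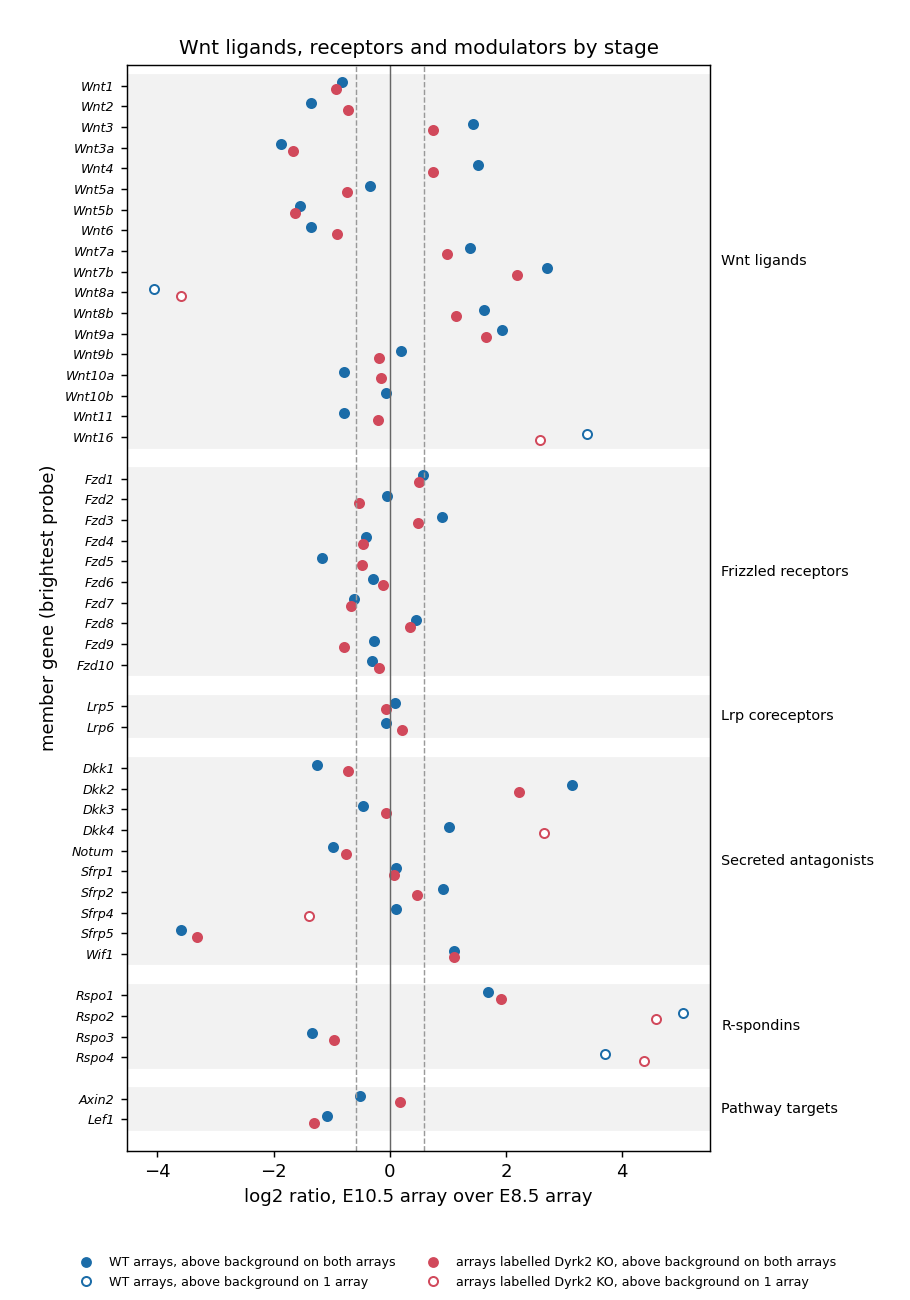
Log2 ratio of the E10.5 array over the E8.5 array (horizontal axis) for each member at its brightest probe (vertical axis), grouped by class, on the WT arrays (blue) and the labelled arrays (red), 1 array per group and no error bars. Hollow points were above background at 1 stage only, and dashed lines mark 1.5-fold. Hollow points show the measured ratio, not the bound, so that their positions rank no gene. As plotted, *Rspo2* and *Rspo4* lie farthest to the right and *Wnt8a* and *Sfrp5* farthest to the left in both genotypes.

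Secreted antagonists fall into proteins that catch Wnt itself (the Sfrp family and Wif1), proteins that occupy Lrp5 and Lrp6 (Dkk1, Dkk2 and Dkk4) and Notum, an enzyme that removes the lipid from Wnt. All 10 were measured at each stage. At E8.5, 4 were higher and 6 lower on the labelled array, 3 of the 10 past 1.5-fold (*Dkk4* by measured values only). The share was 30%, against 11.6% of all genes, or 20% against 9.26% with bounds. The median log2 ratio was −0.21 (−0.10 with *Dkk4* at its bound), which kept its sign under each scaling (−0.14 to −0.76). At E10.5, 5 were higher and 5 lower, 1 of them past 1.5-fold (10%, against 7.72% of all genes), and the median of −0.04 became 0.12 under the spike-in scaling. With stage, 4 of the 10 rose and 3 fell, where 15.7% of all probes rose and 19.6% fell.

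Within the Dkk family the members moved apart at E8.5. *Dkk1*, needed for head formation, had levels of 0.04, −0.58, −1.21 and −1.31 (chromosome 19 of mm9, 30620529 to 30620588), 1.54-fold lower on the labelled array at E8.5 and 1.07-fold lower at E10.5. *Dkk2*, known from the eye, had −4.14, −3.33, −1.01 and −1.11 (chromosome 3, 131842357 to 131842416), 1.75-fold higher on the labelled array at E8.5 and 1.07-fold lower at E10.5. Thus WT was the higher array for *Dkk1* and the labelled array for *Dkk2* at E8.5, while at E10.5 the genotypes lay close together. The WT E8.5 level of *Dkk2* lay near the lowest signal marked as above background there. Its ratio at E8.5 was under 1.5-fold with the normexp correction, the spike-in scaling or no scaling (log2 ratios 0.35, 0.26 and 0.55), and that of *Dkk1* was under it with the normexp correction (−0.52).

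*Dkk4*, a target of Wnt signaling in ectodermal appendages, was at −4.66, −3.64 and −4.17 on WT E8.5, WT E10.5 and labelled E10.5 and not well above background on the labelled E8.5 array, where no fold is given since its level in WT lay under the lowest signal so marked on the labelled array. A second *Dkk4* probe was at background on all 4 arrays. *Dkk3*, a divergent relative that does not act like the others on Lrp6, had 1.20, 0.85, 0.73 and 0.78, and a further probe was also lower on the labelled E8.5 array (1.09-fold). Over stage *Dkk2* rose 8.74-fold on the WT and 4.68-fold on the labelled arrays (limma, log2 difference 2.68, SE 0.247, adjusted p = 6.04e-05). *Dkk4* rose 2.03-fold and at least 1.28-fold (adjusted p = 0.0219), a call that the normexp correction ended (adjusted p = 0.231), and *Dkk1* fell 2.38-fold and 1.65-fold (adjusted p = 0.00231).

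The Sfrp family and *Wif1* share the property of binding Wnt outside the cell. *Sfrp5*, expressed in foregut endoderm, had levels of 2.95, 2.74, −0.65 and −0.57 (chromosome 19, 42272509 to 42272568), the steepest fall among members above background on all 4 arrays, 12.1-fold on the WT and 9.97-fold on the labelled arrays (limma, log2 difference −3.46, SE 0.136, adjusted p = 6.79e-07). *Sfrp2*, which acts in somites and limbs, had 2.41, 2.90, 3.32 and 3.37 and rose 1.88-fold and 1.38-fold (adjusted p = 0.00498). *Sfrp1* was flat, at 1.63, 1.69, 1.73 and 1.76 (adjusted p = 0.608). *Sfrp4* was near background, at −4.0, −3.50 and −3.89 on the first 3 arrays and not well above background on the labelled E10.5 array, where it was at least 1.84-fold lower than on WT.

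*Wif1* had levels of −1.88, −2.43, −0.78 and −1.33 (chromosome 10, 120537079 to 120537138). The labelled array lay 1.47-fold below WT at E8.5 and 1.47-fold below it at E10.5, and lower under each scaling tried (log2 ratios −0.21 to −1.10 and −0.39 to −0.69). After adjustment limma did not call this difference, except without scaling. *Wif1* rose with stage 2.15-fold on the WT and 2.14-fold on the labelled arrays (limma, adjusted p = 0.00109). *Notum* had 2.36, 2.14, 1.38 and 1.39 and fell 1.97-fold and 1.68-fold (adjusted p = 0.00099), and its other probe, on 3 arrays above background, fell too (adjusted p = 0.0053).

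R-spondins strengthen Wnt signaling by keeping Frizzled receptors at the cell surface through Lgr proteins and the ligases Znrf3 and Rnf43. At E8.5, 2 of 4 were measured and both were lower on the labelled array by less than 1.5-fold (median log2 ratio −0.23, lower under each scaling), and at E10.5, 3 of 4 were higher and 1 lower, with a median of 0.08 that turned to −0.05 without scaling. *Rspo2*, which acts in the limb, was not well above background at E8.5 and reached −0.29 and −0.45 at E10.5, at least 23.1-fold and at least 16.9-fold higher (limma, adjusted p = 1.5e-06). This rests on its brightest probe, since a second *Rspo2* probe was at background on all 4 arrays. *Rspo1*, an ovary-determining factor, had 1.08, 0.93, 2.76 and 2.84 and rose 3.21-fold and 3.76-fold (adjusted p = 1.41e-05). The E10.5 arrays of both genes were high in each genotype. *Rspo3*, needed for vessels of the placenta, went the other way, with 2.67, 2.37, 1.32 and 1.41, a fall of 2.54-fold and 1.95-fold (adjusted p = 0.000278) that its other probe shared (adjusted p = 0.00875).

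*Rspo4*, a factor of nail growth, was read differently by its probes. The brightest (chromosome 2 of mm9, 151700345 to 151700404) was not well above background at E8.5 and stood at −2.12 and −1.98 at E10.5, at least 6.52-fold and at least 5.86-fold higher (limma, adjusted p = 4.05e-05). The other was well above background on the WT E8.5 array alone, at −3.24, at least 2.43-fold above the labelled E8.5 array and at least 2.78-fold above WT E10.5. Its sequence is shown since it gives the opposite stage direction on the WT arrays. It spans 3145 bases of chromosome 2 of mm9, from 151695643 to 151698787, and so lies across an intron of the gene.
*Rspo4* probe: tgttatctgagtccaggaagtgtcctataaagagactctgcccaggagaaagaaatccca

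The target genes answer to the pathway and feed back on it. *Axin2*, an inhibitor of β-catenin whose transcript is widely used as a readout of canonical signaling, had levels of 1.04, 0.27, 0.53 and 0.44 (chromosome 11 of mm9, 108811980 to 108812039). WT E8.5 was the high array and the other 3 lay together, so that the labelled array was 1.71-fold lower at E8.5 and 1.06-fold lower at E10.5. At E8.5 it was lower under each scaling tried (log2 ratio −0.70 to −1.32). The other *Axin2* probe went against this, with −2.72, −2.61, −3.06 and −2.74, 1.08-fold higher on the labelled array at E8.5 and 1.24-fold higher at E10.5. *Lef1*, a DNA-binding partner of β-catenin, had 3.81, 3.73, 2.73 and 2.43, 1.06-fold and 1.23-fold lower on the labelled arrays, and its further probes were at background on all 4 arrays. Over stage *Lef1* fell 2.11-fold and 2.46-fold (limma, log2 difference −1.19, SE 0.122, adjusted p = 0.000115), while *Axin2* was not called (−0.17, adjusted p = 0.49).

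Further genes of the pathway gave the setting. Of 20 other target genes, 20 were measured at E8.5, where 6 were higher and 14 lower on the labelled array with a median log2 ratio of −0.14, lower under each scaling. The 2 genes past 1.5-fold (10%, against 11.6% of all genes) were *Mesp2* (2.83-fold lower) and *Cdx1* (2.19-fold lower), a segmentation gene and a regulator of axial identity. At E10.5, 7 of 17 were higher and 10 lower, with a median of −0.02 (0.14 under the spike-in scaling). Past 1.5-fold (17.6%, against 7.72% of all genes) were *Tbx6*, *T* and *Cdx2*, which act in the tail bud and were lower (3.16-fold, 2.81-fold and 1.64-fold). Limma called 16 of the 20 for stage, 1 higher and 15 lower, where 35.3% of all probes were called, 15.7% higher and 19.6% lower. Of the 15, *Cdx4*, *Msgn1* and *Mesp2* were above background at E8.5 alone, so that they entered the fit through the arrays where they are high and had to differ. *Ccnd1*, with the highest mean level, stood at 4.76, 4.69, 4.90 and 4.85.

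Of 29 cytoplasmic and nuclear components, which pass the signal from the receptor to the nucleus, 15 were higher and 14 lower at E8.5 (median 0.01, turning to −0.53 under the spike-in scaling, −0.24 without scaling and −0.00 with the normexp correction), and 5 were higher and 24 lower at E10.5 (median −0.09, 0.07 under the spike-in scaling). Past 1.5-fold were *Apc2*, a scaffold of the destruction complex (7.06, 6.36, 6.71 and 6.41, 1.63-fold lower at E8.5, and the highest mean level of the list), and *Tnks*, which marks Axin for removal (0.44, 1.04, 0.31 and 0.27, 1.51-fold higher at E8.5). They were 6.9% of the list at E8.5, against 11.6% of all genes. *Ctnnb1*, the gene of β-catenin, was flat at 4.72, 4.69, 4.52 and 4.55. Limma called 9 of the 29 for stage, 5 higher and 4 lower, a share near the 35.3% of all probes.

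Of 17 genes of Wnt secretion, further coreceptors and receptor turnover, 16 were measured at each stage, with medians of −0.13 at E8.5 (lower under each scaling) and −0.09 at E10.5 (0.07 under the spike-in scaling), and *Lgr6* was at background on all 4 arrays. The 1 gene past 1.5-fold was *Kremen2*, a receptor for Dkk proteins (6.25% of measured genes at E8.5, against 11.6% of all genes). It had −4.49, −3.63, −1.28 and −1.48 and was 1.81-fold higher on the labelled array at E8.5. Its WT E8.5 level lay near the lowest signal marked as above background, and under the spike-in scaling (log2 ratio 0.31) or the normexp correction it did not pass 1.5-fold. The highest mean level was that of *Gpc3* (5.10, 4.92, 4.89 and 4.90), and limma called 2 of 16 higher and 6 lower with stage (15.7% and 19.6% of all probes). Of 12 planar cell polarity genes, 4 were higher and 8 lower at E8.5 and 3 higher and 9 lower at E10.5 (medians −0.09 and −0.13, the latter 0.04 under the spike-in scaling). *Celsr3*, an adhesion receptor of axon tracts, had 0.86, 0.42, 1.98 and 1.39 and was 1.51-fold lower at E10.5. It alone passed 1.5-fold there (8.33%, against 7.72% of all genes). The highest mean level was that of *Scrib* (5.46, 5.42, 5.27 and 5.29), and limma called 4 of 12 higher and 3 lower with stage, beside the same shares of all probes.

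Among 11 other secreted or membrane modulators of Wnt, 5 passed 1.5-fold at E8.5 (45.5%, against 11.6% of all genes) and 0 at E10.5, where 7.72% of all genes did. *Shisa3*, which holds back Frizzled proteins, had levels of −3.75, −1.95, 0.95 and 0.98 and was 3.47-fold higher on the labelled E8.5 array. *Cer1*, an antagonist of Nodal, BMP and Wnt, had −2.73, −1.51, −3.84 and −4.18 (2.34-fold higher), and *Sost*, an antagonist that binds Lrp5 and Lrp6, had −4.07, −3.23, −3.77 and −3.50 (1.80-fold higher). In these 3 genes the WT E8.5 array lay below the labelled one. *Sostdc1* had −2.60, −1.92, 0.20 and 0.16 (1.61-fold higher), and *Dkkl1*, known from the testis, had −2.44, −3.35, −2.87 and −2.98 (1.87-fold lower). With the normexp correction 2 of the 11 passed 1.5-fold (18.2%, against 2.96% of all genes), and under the spike-in scaling 6 did, 2 higher and 4 lower (54.5%, against 49% of all genes). Over the 11 genes, 6 were higher and 5 lower at E8.5 (median 0.06, −0.49 under the spike-in scaling and −0.20 without scaling) and 2 higher and 9 lower at E10.5 (median −0.10, 0.06 under the spike-in scaling). The highest mean level was that of *Apcdd1* (3.80, 3.80, 3.13 and 3.10), and limma called 3 of 11 higher and 3 lower with stage (15.7% and 19.6% of all probes).

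Markers of the tissues in which these ligands act are given beside them. Of 16 tail bud and presomitic mesoderm markers, several of which are also on the target list, 5 were higher and 9 lower on the labelled array at E8.5 (median −0.09, *Mesp2* and *Nkx1-2* past 1.5-fold, both lower, the latter 1.55-fold), and 2 were higher and 10 lower at E10.5 (median −0.49). Past 1.5-fold at E10.5 were *T*, *Tbx6*, *Cdx2*, *Hoxc13* (3.22-fold lower) and *Hoxb13* (at least 10.4-fold lower). The share of measured markers past it was 14.3% at E8.5, against 11.6% of all genes, and 41.7% at E10.5, against 7.72%. The summed level of the 16 markers was 59.9, 53.6, 17.0 and 12.5, and the highest mean level was that of *Dll3* (2.73, 2.83, 3.04 and 2.50). *Msgn1*, *Cdx4*, *Mesp2* and *Nkx1-2* were at background at E10.5, and *Hoxb13* and *Hoxc13* at E8.5. In summed level each labelled array lay below WT of its stage, and both E10.5 arrays below those of E8.5. The part of tail bud content in the levels of *Wnt3a* and *Wnt8a* was not tested.

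Of 13 neural tube markers, 10 could be measured at E8.5, and 4 of them were higher on the labelled array (median −0.03, *Neurog2* 1.81-fold and *Olig2* 1.75-fold higher), and 1 of 13 was higher and 12 lower at E10.5 (median −0.23, *Dcx* 1.51-fold lower). Their summed level was 42.1, 43.1, 88.3 and 71.7, with the highest mean level in *Sox3* (4.26, 4.30, 4.14 and 3.96), and *Neurog1*, *Neurod1* and *Dcx* were at background at E8.5. The E10.5 arrays were the higher ones for this sum, as for *Wnt7b* and *Wnt8b*, and the part of neural content in these ligands was not tested. Of 13 heart markers, 8 were higher and 5 lower at E8.5 (*Myl2* 1.75-fold and *Tnni3* 1.53-fold higher) and 5 higher and 8 lower at E10.5, with medians of 0.01 and −0.05, a summed level of 246, 259, 153 and 151 and the highest mean level in *Myh6* (6.18, 6.13, 5.08 and 5.21). Of 11 limb bud markers, 7 of 10 were higher at E8.5 (*Pitx1* 1.66-fold) and 4 of 11 at E10.5 (*Hoxd12*, at background at E8.5, 2.18-fold and *Hoxd13* 1.61-fold lower), with medians of 0.09 and −0.05, a summed level of 41.1, 44.9, 48.7 and 46.7, and the highest mean level in *Msx1* (4.31, 4.32, 4.08 and 4.13). Spike-in scaling or none turned the E8.5 medians of heart and limb negative, and spike-in scaling turned both positive at E10.5. Past 1.5-fold at E8.5 were 20% of measured neural tube, 15.4% of heart and 10% of limb markers, against 11.6% of all genes. The shares at E10.5 were 7.69%, 0% and 18.2%, against 7.72%.

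Tcf and Lef proteins bind short DNA words, and these were looked up in the 250 bases before the gene starts in RefSeq (GRCm38.p6). Of the 47 members 30 were matched by symbol. The word CTTTGAA was searched on both strands together with its variants, which are the word CTTTGAT, the word CTTTGTA and the word CTTTGTT, and 5 of the 36 windows of these members (13.9%) held one, close to 14.8% of 32851 windows of all genes. They were windows of *Dkk1*, *Fzd7*, *Wnt11*, *Lef1* and *Wnt5b*. Those of the first 3 genes, each the most upstream window of its gene, are shown because they carry the words, which stand in capitals. *Dkk1* and *Fzd7* fell with stage, while *Wnt11* was not called at its brightest probe. Each runs 5′ to 3′ in the direction of the gene: *Dkk1* at chr19:30549497-30549746 on the minus strand, *Fzd7* at chr1:59481897-59482146 and *Wnt11* at chr7:98834862-98835111 on the plus strand. A match is a description, not a site or a cause.
*Dkk1*: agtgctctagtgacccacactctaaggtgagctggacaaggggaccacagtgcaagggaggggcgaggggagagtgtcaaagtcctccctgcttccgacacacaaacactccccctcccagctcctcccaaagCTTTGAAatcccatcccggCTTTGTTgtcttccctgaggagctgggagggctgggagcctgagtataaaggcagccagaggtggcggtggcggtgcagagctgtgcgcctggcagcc
*Fzd7*: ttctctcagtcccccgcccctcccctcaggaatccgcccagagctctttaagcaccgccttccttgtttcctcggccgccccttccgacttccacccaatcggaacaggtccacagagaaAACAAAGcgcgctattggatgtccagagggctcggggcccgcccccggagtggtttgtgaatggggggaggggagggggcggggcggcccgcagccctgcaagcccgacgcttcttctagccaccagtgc
*Wnt11*: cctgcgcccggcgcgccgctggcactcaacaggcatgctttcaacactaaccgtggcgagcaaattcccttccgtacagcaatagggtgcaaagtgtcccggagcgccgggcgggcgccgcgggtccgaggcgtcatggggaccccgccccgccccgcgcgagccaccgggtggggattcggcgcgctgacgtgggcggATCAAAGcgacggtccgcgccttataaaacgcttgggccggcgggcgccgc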

How the data were processed

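RNA of whole embryos had been hybridized to 4 one-colour Agilent mouse arrays on 1 slide, 1 per genotype and stage. Scanner files were deposited for all 4; their intensity is on a linear scale, has background and spatial trend removed, and is not scaled between arrays. The file headers give Feature Extraction 10.7.1.1 and the submitters' processing notes 9.5.1.1. A table of linear intensity whose 4 columns share 1 distribution was also deposited and used as an alternative; its scale and centring are not stated. Each array has 62976 spots, of which 59305 are not controls. Probes well above background numbered 31370, 30226, 31818 and 31943 on WT E8.5, *Dyrk2*-/- E8.5, WT E10.5 and *Dyrk2*-/- E10.5, and 0 spots were saturated.

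Outlier spots were left out, the log2 intensities of spots with the same probe were averaged, and each array's 75th percentile was subtracted, giving 56604 probes after 1 without a value was left out. Gene names and mm9 positions are those of the files; 59 of the 69 member probes have an accession in the RefSeq table, all 59 under the same symbol. A gene entered a comparison if 1 or both arrays of the pair passed the background mark, and counted as changed from 1.5-fold. A bound sets the brighter array against the higher of the dimmer value and the lowest signal marked above background on that array. Limma 3.58.1 (lmFit, eBayes with an intensity trend) tested stage and genotype for probes that passed the background mark on 2 or more arrays, adjusted over all of them by Benjamini-Hochberg. Its p-values set the stage and genotype terms against the departure from additive effects of 4 arrays. That departure has 1 residual degree of freedom, and eBayes adjusts it by the spread of all probes. Precision is limited by the number of arrays. The fit was tested on simulated data.

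Alternatives were quantile normalization, normexp with an offset of 50, scaling by 7 of 10 spike-in probes, no scaling, the deposited table, other filters, the mean over probes, a 2-fold threshold, a Z-score over 2 or under −2, and limma without the trend. Setting members above background on 1 array at their bound was chosen after seeing the data. The members and lists were chosen with earlier results of these data known. Members past 1.5-fold between genotypes or called by limma, the 3 with the highest stage ratios in each direction, *Lrp5*, *Lrp6*, *Wif1*, *Axin2*, *Lef1* and *Notum* are given with all levels by rule. Of other lists the brightest gene is given with its levels. Genes of other lists past 1.5-fold between genotypes are named, some with levels, but most erythroid ones are only counted. Other members and genes with levels were added after their values were seen. The marker lists are erythroid, yolk sac endoderm, decidua and trophoblast, tail bud and presomitic mesoderm, neural tube, heart, limb bud and sex chromosome genes; the pathway lists are secretion and coreceptors, other modulators, cytoplasmic and nuclear components, planar cell polarity and target genes. Values of 1 listed gene are not reported here. Plots were made with matplotlib 3.10.9, lists and ratios with pandas 2.3.3 and numpy 2.4.6 in Python 3.11.15, and array values with data.table (version 1.17.8) in R 4.3.3.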

Additional observations from a re-analysis of the deposited data

How the results depend on the processing

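The count of members changed 1.5-fold or more at E8.5, 7 (1 higher, 6 lower), was 22 (0 higher, 22 lower) under the spike-in scaling (51.2%, against 49% of all genes), 11 (0 and 11) without scaling (25.6%, against 17.8%), and 2 (0 and 2) under normexp (4.65%, against 2.96%), at 2-fold and with a Z-score over 2 or under −2. Under quantile normalization, the deposited table, a filter on both arrays, no filter, the mean over probes and with bounds it was 5 to 8. The median at E8.5 turned to 0.0044 under normexp and 0.0149 with a filter on both arrays or none, and moved to −0.61 under the spike-in scaling (2 higher, 41 lower) and −0.32 without scaling (10 and 33). At E10.5 the count of 1 became 0 under normexp, a filter on both arrays and 2-fold, 4 without scaling (8.89%, against 9.20% of all genes) and 2 with no filter or the mean over probes, and the median of −0.06 turned to 0.10 under the spike-in scaling (30 higher, 15 lower) and moved to −0.19 without scaling (6 and 39).

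Between stages the WT count was 23 to 31 over the alternatives. The count on the labelled arrays was 16 at 2-fold and 22 to 31 otherwise, with 20 higher and 6 lower under the spike-in scaling and 17 and 9 without scaling, against 13 and 15. Limma's genotype count of 0 became 4 without scaling (*Wnt8a*, *Wnt10a*, *Wif1* and *Axin2*, all lower, where 729 of 32289 probes were called) and 1 with no filter (*Wnt8a*, where 564 of 56604 were called); members at an unadjusted p under 0.05 numbered 2 to 12. Its stage count of 32 became 11 under the spike-in scaling (9 higher, 2 lower, where 2633 of 32289 probes were called) and was 24 to 33 otherwise, with 17 higher and 12 lower without scaling. Of the stage differences of called members recomputed under 5 other scalings, 132 kept direction and threshold and 28 missed the threshold, 21 of those under the spike-in scaling.

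The cause of these moves was not tested. No paired analysis was possible because the labels give no replicate numbers and each group has 1 array, and leaving out an array leaves limma no residual degrees of freedom. Low signal limits *Wnt10b*, *Dkk4* and *Sfrp4*, whose levels lie near background, and *Dkk2*, *Kremen2* and *Sost* on the WT E8.5 array. Slide and group could not be compared, as all arrays share 1 slide.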
